A study of Rattus norvegicus with 24 samples.

Results

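The nuclear subunits of complexes II to V of the respiratory chain were taken as every gene symbol in the transcript table that matched a name pattern: Sdha to Sdhd, symbols starting with Uqcr, Cyc1, Cycs, symbols starting with Cox followed by 4 to 8, and symbols starting with Atp5. The pattern found 47 of 15273 genes, with 56 transcripts: 4 in complex II, 9 in complex III, cytochrome c (Cycs), 16 in complex IV and 17 in complex V. RNA with poly-A tails was sequenced from 24 tibialis anterior muscles of 12 adult male Wistar rats. In each rat the left muscle was trained once daily by an implanted nerve stimulator against the pull of its antagonists, and the right muscle of the same rat was left unstimulated. Training lasted 2, 10, 20 or 30 days, with 3 rats each, and both muscles were taken 1 h after the last session. In the trained muscles the response to that session and to the days of training cannot be told apart. The 12 contralateral muscles formed 1 control group, so the comparisons share their controls.

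Complex II, the succinate dehydrogenase of the citric acid cycle, passes electrons to ubiquinone, complex III passes them on to cytochrome c, complex IV hands them to oxygen, and complex V uses the proton gradient that complexes III and IV help to build to make ATP. Apart from complex II, whose subunits are all nuclear, each complex joins nuclear subunits to subunits encoded in mitochondrial DNA. Several complex IV subunits come as a form made mainly in heart and skeletal muscle and a form made in most tissues, and the c subunit of complex V is made from a set of genes that differ in their targeting peptides.

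Levels are transcript values per length, scaled muscle by muscle with median-of-ratios factors and summed per gene, and fold changes are log2 of (value + 1) in 3 trained against 12 contralateral muscles, with the standard error after ±. Adjusted p-values are over 11196 genes, and "rose" and "fell" are used below an adjusted p of 0.05. The values hold no read depth, so the precision behind each is unknown, and the added 1 understates the fold change of genes near or below a level of 1. Cox6b2, the testis form of its subunit, was at 0 to 0.436 in the contralateral muscles and at 0 to 0.796 in the trained ones, and was not tested, which left 46 members. Mitochondrial mRNA made up 39.9%, 43% and 43.9% of the total in the 30-day trained muscles, and its part in the effect of rescaling was not tested. In the other trained muscles it made up 23.4% to 35.5%. Contralateral muscle 1 of the 30-day rats stood apart from the other controls at 43.7%, against at most 34.6% in the rest. Its rescaling factor was 0.778, the lowest of the 24.

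Some symbols do not sit where a later annotation puts them. The row labelled Cox7a2l2 (Rnor_6.0 chr8:87209530-87213628) lies between Col12a1 and Tmem30a, where the GRCr8 annotation has Cox7a2, the Cox7a form of most tissues, and no row carries the symbol Cox7a2. It is called Cox7a2l2 here, as in the table. Of the summed Uqcrb level 90.3% came from a 476-base locus at chr1:94718402-94718877, next to Plekhf1 and Pop4, where GRCr8 lists a Uqcrb pseudogene. The Atp5md level came from a 309-base locus at chr10:89187167-89187475, next to Wnk4 and Coa3, where GRCr8 lists a pseudogene of the same subunit (Atp5mk). A 262-base locus on chromosome 2 gave 18.5% of the Cox6b1 sum. Which locus the reads of these members came from was not tested.

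On the rescaled values more members fell than rose after 2 days of training, and more rose than fell after 30 days. After 2 days 15 of the 46 tested members fell and 1, Cox6a1, rose, where 13.5% of all genes fell and 15.4% rose. After 10 days 4 rose and 3 fell, against 15.6% and 13.3% of all genes. After 20 days 5 rose and 0 fell by limma, against 11.7% and 9.64%, and 15 members had an unadjusted p under 0.05. After 30 days 27 rose and 0 fell by limma, against 11.1% and 9.46%, with 33 at an unadjusted p under 0.05. The median log2 fold change of the members was -0.28, -0.07, 0.20 and 0.40 at the 4 times, where the median of all genes lay between -0.03 and -0.01. In bulk muscle a lower level may come from fewer cells of a type or from less RNA per cell, and these cannot be told apart.

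The counts depended on single muscles. The 16 members called after 2 days became 3 without trained muscle 2 and 10 without trained muscle 3 of that time. The 7 called after 10 days became 3 without trained muscle 1 of that time, and the 27 called after 30 days became 9 without trained muscle 2 of that time. The 5 called after 20 days became 2 or 3 when any 1 of several muscles was left out: trained muscles 1 and 2 of 20 days, trained muscle 1 of 30 days, contralateral muscles 1 and 3 of the 2-day rats, 2 and 3 of the 10-day rats, 1, 2 and 3 of the 20-day rats, and 3 of the 30-day rats. They became 10 without contralateral muscle 2 of the 2-day rats and 8 without contralateral muscle 1 of the 10-day rats. The shares of all genes in these fits are not given, so a move particular to the members cannot be told from a general one. With the rat as a replicate block 1 rose and 12 fell after 2 days (all genes 11.8% and 9.80%), 4 rose and 3 fell after 10 days (12.1% and 8.003%) and 6 rose and 0 fell by limma after 20 days (9.94% and 7.42%, 25 at an unadjusted p under 0.05). In that fit 6 of the 27 rises at 30 days passed, against 7.21% of all genes: Cox6a1, Cox7a1, Cox7a2l2, Cox7b, Atp5pb and Atp5pf. With only the 3 contralateral muscles of the same time as controls 7 passed at 30 days, against 5.80% of all genes higher, and 11, against 4.66%, when contralateral muscle 1 of the 30-day rats was also left out. Against all controls but that muscle, 27 passed, against 11.6% of all genes higher.

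Scaling moved the counts as well. In the values as deposited, which share 1 total per muscle, the median of all genes shifted to 0.07, 0.07, -0.03 and -0.18 at the 4 times. Of the members 2 rose and 9 fell after 2 days (all genes 18.9% and 6.49%), and 6 rose and 0 fell by limma after 10 days (18.6% and 6.06%, 8 members at an unadjusted p under 0.05). On that scale 11 rose and 0 fell by limma after 20 days (10.3% and 6.62%, 20 at an unadjusted p under 0.05). After 30 days also 11 rose and 0 fell by limma (5.74% and 23%, 22 at an unadjusted p under 0.05). In the deposited gene-level values, which hold 44 members, the median of all genes was 0.11, 0.12, -0.09 and -0.35. There 2 members rose and 2 fell after 2 days (all genes 24.2% and 4.83%), where falls did not outnumber rises. After 10 days 10 rose and 0 fell by limma (19.6% and 3.21%, 13 at an unadjusted p under 0.05), and after 20 days 4 rose and 0 fell by limma (7.12% and 8.61%, 10 at an unadjusted p under 0.05). Of the 44 members, 0 rose and 8 fell by limma after 30 days (all genes 2.98% and 63%), with 8 at an unadjusted p under 0.05. Relative to each scale's own median, the members lay above it in 5, 16, 43 and 44 of 46 cases after rescaling and in 5, 21, 43 and 40 of 46 as deposited. In the gene-level table they lay above it in 4, 31, 41 and 38 of 44. After that table was rescaled by its own median-of-ratios factors, 1 member rose and 21 fell after 2 days (all genes 19.8% and 18.6%). With these factors 4 rose and 2 fell after 10 days (16.4% and 13.1%), 15 rose and 0 fell by limma after 20 days (12.6% and 10.3%, 24 at an unadjusted p under 0.05), and 34 rose and 0 fell by limma after 30 days (all genes 15% and 13%), with 36 at an unadjusted p under 0.05.

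**Figure D1:**
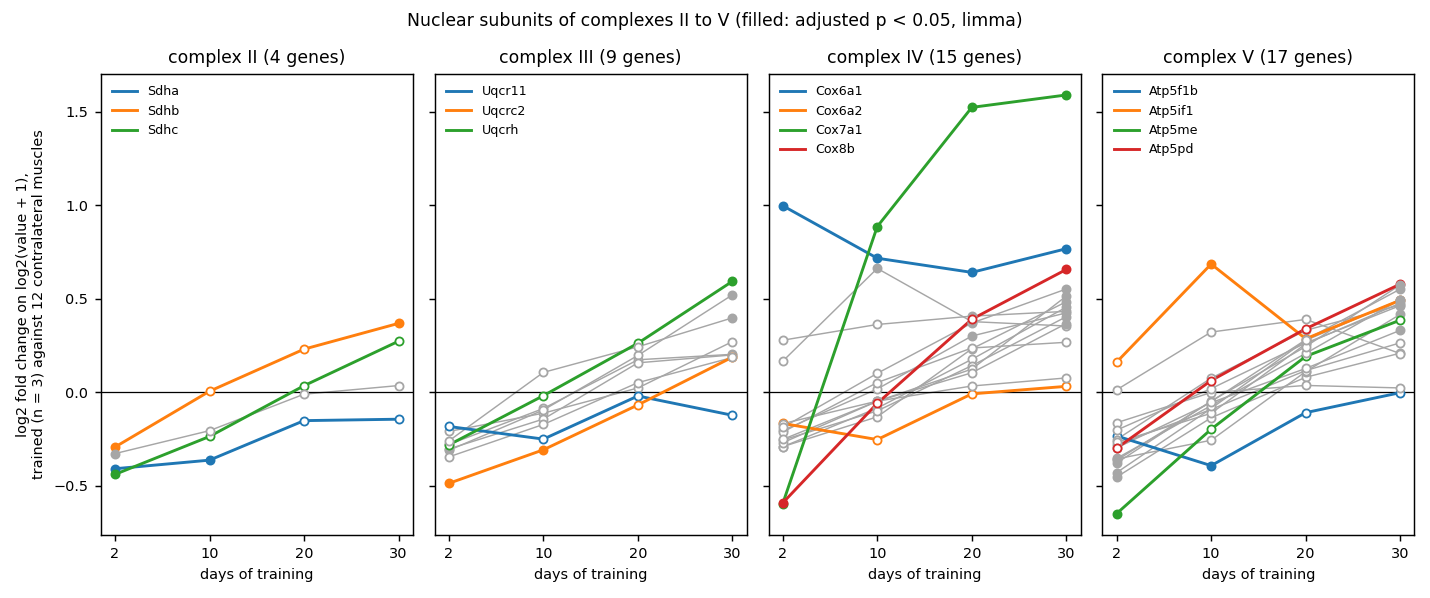
Log2 fold change of each tested member (vertical axis, log2 of value + 1, 3 trained against 12 contralateral muscles) over days of training (horizontal axis), in a panel per complex without Cycs, with filled points at an adjusted p under 0.05 and the named members in colour. The lines of most members rise from below 0 after 2 days to above 0 after 30 days on the rescaled values, and in the gene-level table without rescaling the 30-day medians of complexes II, III and IV were below 0.

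All 4 subunits of complex II fell after 2 days (all genes 13.5%), and 1 of the 4, Sdhb, rose after 30 days (all genes 11.1%). Sdha, the flavoprotein that oxidises succinate, was at 212 to 298 (median 268) in the 12 contralateral muscles. Its trained levels were 236, 166 and 206 after 2 days, 179, 216 and 229.7 after 10 days, 224, 266 and 232 after 20 days and 265, 241 and 219 after 30 days. It was below every contralateral muscle in 2 of 3 muscles after 2 days and in 1 of 3 after 10 days, and within their range after 20 and 30 days. Limma gave a log2 fold change of -0.41 ± 0.11 (adjusted p 0.00561, 0.155 as deposited) after 2 days, -0.36 ± 0.11 (adjusted p 0.0125, 0.267 as deposited) after 10 days and -0.14 ± 0.11 (adjusted p 0.371) after 30 days. Sdhb, the iron-sulphur subunit next to it, was at 229 to 325 (median 253) in the contralateral muscles and at 226, 187 and 229 after 2 days, 242, 282 and 266 after 10 days, 339, 307 and 279 after 20 days and 341, 372 and 305 after 30 days in the trained ones. The 30-day muscles overlapped the controls in 1 of 3 cases. The fit put the log2 fold change at -0.29 ± 0.10 (adjusted p 0.0349, 0.0760 with the replicate block, 0.132 as deposited) after 2 days and 0.37 ± 0.10 (adjusted p 0.0126, 0.149 with the replicate block, 0.206 as deposited) after 30 days. Sdhc, a membrane anchor, was at 216 to 320.3 (median 255) in the contralateral muscles, 225, 158 and 195 after 2 days and 322, 338 and 284 after 30 days. It was below every control in 2 of 3 muscles at 2 days and above them in 2 of 3 at 30 days, with the lowest 2-day fold change of the complex, -0.44 ± 0.11 (adjusted p 0.00424), and 0.27 ± 0.11 (adjusted p 0.0854) after 30 days. Sdhd, the other anchor, was at 233 to 366 (median 262) in the contralateral muscles and 245, 183 and 219.9 after 2 days, 2 of 3 below every control, at -0.33 ± 0.12 (adjusted p 0.0354, 0.232 as deposited).

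Over the complex the median log2 fold change was -0.37, -0.22, 0.01 and 0.15 at the 4 times. Medians with the other sign were -0.07 after 30 days as deposited, and 0.02 after 10 days, -0.05 after 20 days and -0.29 after 30 days in the gene-level table. The summed level of the 4 genes was 969.9 to 1286 (median 1049.7) in the contralateral muscles and 932, 695 and 850.4 after 2 days, so the 2-day muscles lay below every contralateral one. After 30 days it was 1218, 1250.05 and 1051, within the control range. Under the replicate block 3 of the 4 falls after 2 days passed (all genes 9.80%) and the rise of Sdhb did not. As deposited, 1 of the 4 falls passed (all genes 6.49%).

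In complex III 2 of 9 subunits fell after 2 days (all genes 13.5%), and after 30 days 3 rose (all genes 11.1%): the hinge protein Uqcrh and the small subunits Uqcrq and Uqcrb. Uqcrc2, a core protein on the matrix side, was at 261 to 348 (median 302) in the contralateral muscles and at 261, 174 and 219.9 after 2 days, 227, 240.04 and 267 after 10 days, 289.96, 267 and 309.8 after 20 days and 362, 375 and 301 after 30 days in the trained ones. All 3 of its 2-day values were below the controls, 2 of 3 were at 10 days, and 2 of 3 were above them at 30 days. Against the pooled controls the log2 fold change was -0.49 ± 0.10 (adjusted p 0.000923) after 2 days, -0.31 ± 0.10 (adjusted p 0.0272, 0.301 as deposited) after 10 days and 0.19 ± 0.10 (adjusted p 0.210, log2 fold change -0.04 as deposited) after 30 days. Its partner Uqcrc1 was at 274 to 388 (median 315) in the contralateral muscles and 287, 219 and 259 after 2 days, 2 of 3 below every control, at -0.30 ± 0.11 (adjusted p 0.0416, 0.219 as deposited). Uqcrh, which helps complex III hand electrons to cytochrome c, was at 143 to 230.2 (median 182) in the contralateral muscles and at 166, 137 and 152 after 2 days, 168, 185 and 194 after 10 days, 277, 182 and 214 after 20 days and 233, 315 and 293 after 30 days in the trained ones. After 30 days all 3 muscles were above every control. The log2 fold change at that time was 0.59 ± 0.14 (adjusted p 0.00396, 0.0696 with the replicate block), and as deposited it was 0.37 with an adjusted p of 0.0184.

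The nuclear redox subunits of complex III, Uqcrfs1 and Cyc1, did not pass at any single time in the main fit, and passed after 2 days with the replicate block and with time-matched controls. Uqcrfs1, the Rieske iron-sulphur protein and the member of the complex with the highest mean level, was at 372 to 558 (median 464) in the contralateral muscles. Its trained levels were 402, 305 and 370.2 after 2 days and 529.8, 634.1 and 409 after 30 days, which overlapped the controls at both times. The log2 fold changes were -0.35 ± 0.13 (adjusted p 0.0520, 0.0274 with the replicate block) and 0.19 ± 0.13 (adjusted p 0.351, log2 fold change -0.04 as deposited). Cyc1, the cytochrome c1 subunit, was at 325 to 505 (median 374) in the contralateral muscles, 328, 280.4 and 329 after 2 days and 465, 457 and 390.2 after 30 days, again with overlap. Its log2 fold changes were -0.28 ± 0.12 (adjusted p 0.0716, 0.0301 with the replicate block) and 0.20 ± 0.12 (adjusted p 0.227, log2 fold change -0.02 as deposited). Uqcr11, a small subunit with the lowest fold change of the complex after 30 days, was at 279.8, 262 and 201, against 234 to 369.7 (median 257) in the contralateral muscles. Its fold change was -0.12 ± 0.13 (adjusted p 0.556) and 0.01 with the replicate block, with 1 of 3 muscles below the controls. Uqcrq, which binds near the quinone site, was at 54.4 to 86 (median 61.7) in the contralateral muscles and 87.3, 95.6 and 71.1 after 30 days, 2 of 3 above every control, at 0.40 ± 0.13 (adjusted p 0.0293, 0.10 with the replicate block, 0.227 as deposited). Uqcrb was at 258 to 470.05 (median 311) and 399.8, 567 and 467, 1 of 3 above, at 0.52 ± 0.16 (adjusted p 0.0189, 0.178 with the replicate block, 0.0618 as deposited).

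The median log2 fold change over complex III was -0.28, -0.11, 0.16 and 0.20. Medians with the other sign were 0.01 after 10 days and -0.02 after 30 days as deposited, and 0.12 after 10 days and -0.25 after 30 days in the gene-level table. The sum of the 9 genes was 2387 to 3423 (median 2688) in the contralateral muscles. It was 2362, 2009.6 and 2279.9 after 2 days, below every control, and 3226, 3661 and 2929.7 after 30 days, with 1 of 3 above every control. When the rat was a replicate block, 4 of the 9 genes fell at 2 days (all genes 9.80%), and 0 rose at 30 days by limma (all genes 7.21%). As deposited, 1 fell at 2 days (all genes 6.49%), and Uqcrh alone passed at 30 days (all genes 5.74%).

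Cycs, the somatic cytochrome c that carries electrons from complex III to complex IV, was at 524 to 825 (median 605) in the contralateral muscles. Its trained levels were 609, 435 and 515 after 2 days, 591, 536 and 613 after 10 days, 849.7, 571 and 787 after 20 days and 774, 972 and 926 after 30 days. At 30 days 2 of 3 muscles were above every control, and all 3 were above their own contralateral muscle. On the log2 scale the difference was -0.29 ± 0.14 (adjusted p 0.115) after 2 days and 0.49 ± 0.14 (adjusted p 0.0136, 0.119 with the replicate block, 0.112 as deposited) after 30 days.

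In complex IV the largest fold changes were those of Cox7a1 and Cox6a1, subunits that have tissue forms. Cox7a1, the heart and skeletal muscle form of its subunit (Rnor_6.0 chr1:91071493-91074295), was at 0.909 to 2.26 (median 1.26) in the contralateral muscles. The trained muscles held 0.421, 0.508 and 0.581 after 2 days, 2.96, 3.22 and 3.41 after 10 days, 5.19, 5.77 and 5.63 after 20 days and 3.42, 7.38 and 7.61 after 30 days. The groups did not overlap at any of the 4 times: all 3 muscles were below every control after 2 days and above every control after 10, 20 and 30 days. As a log2 fold change this was -0.60 ± 0.15 (adjusted p 0.00390) after 2 days, 0.89 ± 0.15 (adjusted p 7.49e-05) after 10 days, 1.52 ± 0.15 (adjusted p 7.15e-08) after 20 days and 1.59 ± 0.15 (adjusted p 5.57e-08) after 30 days. These 4 calls also passed with the replicate block and as deposited. The level was low for a muscle form, so with 1 added before the log the changes are understated, and 1 of the 30-day muscles stood at less than the 20-day ones.

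Cox7a2l2, at the position of the form of most tissues, was far more abundant, at 246 to 408 (median 313) in the contralateral muscles and 296, 258 and 286 after 2 days, 329.6, 339 and 358 after 10 days, 492, 362 and 393 after 20 days and 438, 521 and 449 after 30 days in the trained ones. After 30 days all 3 muscles were above every control, and after 20 days 1 of 3 was. The log2 fold change was 0.37 ± 0.13 (adjusted p 0.0376) after 20 days and 0.55 ± 0.13 (adjusted p 0.00280) after 30 days. The share of Cox7a1 in the sum of both genes was 0.234% to 0.582% in the contralateral muscles and 0.142, 0.196 and 0.203% after 2 days. It was 0.891, 0.940 and 0.945% after 10 days, 1.04, 1.57 and 1.41% after 20 days and 0.775, 1.40 and 1.67% after 30 days. The shares of the trained muscles were below every control at 2 days and above every control from 10 days on. Whether the annotation, or reads that fit several places, lowered the Cox7a1 level was not tested, and the share has the same limit. Cox7a2l, a related protein that joins complexes III and IV into supercomplexes, was at 46.8 to 70.2 (median 55.8) in the contralateral muscles and at 60.0, 65.6 and 53.2 after 30 days, within that range. Its log2 fold change at 30 days was 0.08 ± 0.11 (adjusted p 0.679, log2 fold change -0.14 as deposited).

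For subunit 6a it was the form of most tissues that rose. Cox6a1 was at 23.4 to 45.5 (median 29.7) in the contralateral muscles and at 55.2, 65.8 and 68.8 after 2 days, 46.4, 61.8 and 48.2 after 10 days, 49.1, 53 and 45.1 after 20 days and 55, 58.1 and 48.1 after 30 days in the trained ones. Every trained muscle but 1, at 20 days, was above every contralateral muscle. Limma gave a log2 fold change of 1.00 ± 0.16 (adjusted p 3.48e-05) after 2 days, 0.72 ± 0.16 (adjusted p 0.00110) after 10 days, 0.64 ± 0.16 (adjusted p 0.00407) after 20 days and 0.77 ± 0.16 (adjusted p 0.00101) after 30 days. These calls also passed with the replicate block and as deposited, and with the block the 2-day fold change was 0.57. The contralateral muscles of the 2-day rats, at 40.7, 45.5 and 40.8, were above all other controls, which reached at most 33.8. Cox6a2, the heart and skeletal muscle form and the most abundant gene of complex IV, was at 853 to 1393 (median 1007) in the contralateral muscles and at 915, 935 and 951 after 2 days, 768, 991 and 893 after 10 days, 1159, 1241 and 786 after 20 days and 1127, 1125 and 969.9 after 30 days in the trained ones. Its groups overlapped at every time, and its log2 fold change was -0.17 ± 0.13 (adjusted p 0.360) after 2 days and 0.03 ± 0.13 (adjusted p 0.899, log2 fold change -0.04 with the replicate block, log2 fold change -0.19 as deposited) after 30 days.

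By share, Cox6a2 made up 96.1% to 98% of the pair in the contralateral muscles and 94.3, 93.4 and 93.3% after 2 days. It made up 94.3, 94.1 and 94.9% after 10 days, 95.9, 95.9 and 94.6% after 20 days and 95.4, 95.1 and 95.3% after 30 days. All 12 trained muscles were below every contralateral muscle in this share, which does not depend on the scaling of a muscle. No paralogue share was tested.

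For subunit 8 the muscle form fell after 2 days, and both forms rose after 30 days. Cox8b, the heart and skeletal muscle form of rodents, was at 561 to 977 (median 679) in the contralateral muscles and at 504, 428 and 497 after 2 days, 594, 709.8 and 769.8 after 10 days, 1115, 903 and 823 after 20 days and 1002, 1405 and 1023 after 30 days in the trained ones. All 3 muscles were below every control after 2 days and above every control after 30 days. The fit put the log2 fold change at -0.59 ± 0.15 (adjusted p 0.00533, 0.0666 with the replicate block) after 2 days, -0.06 ± 0.15 (adjusted p 0.811, log2 fold change 0.06 as deposited) after 10 days, 0.39 ± 0.15 (adjusted p 0.0747, 0.0251 as deposited) after 20 days and 0.66 ± 0.15 (adjusted p 0.00354, 0.0911 with the replicate block) after 30 days. Cox8a, the form of most tissues, was at 23.7 to 43.1 (median 28.8) in the contralateral muscles and at 35.1, 30.6 and 44.7 after 2 days, 42, 37 and 37 after 10 days, 37.3, 41.8 and 40.6 after 20 days and 41.6, 46.3 and 34.7 after 30 days in the trained ones. Its trained levels overlapped the controls at each time, and its log2 fold change was 0.28 ± 0.14 (adjusted p 0.149, 0.0403 as deposited) after 2 days, 0.41 ± 0.14 (adjusted p 0.0444) after 20 days and 0.43 ± 0.14 (adjusted p 0.0334, 0.242 with the replicate block, 0.2502 as deposited) after 30 days. The share of Cox8b in the pair was 94.7% to 96.8% in the contralateral muscles, 93.5, 93.3 and 91.7% after 2 days and 96, 96.8 and 96.7% after 30 days. The 2-day shares were below every control, and the 30-day shares overlapped them.

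Cox4i1, the common form of subunit 4, was at 834 to 1174 (median 886) in the contralateral muscles and at 801, 753 and 846 after 2 days, 832, 1051 and 927 after 10 days, 1248, 1246 and 939 after 20 days and 1199, 1337 and 1179 after 30 days in the trained ones. After 30 days all 3 muscles were above every control. Against the pooled controls the log2 fold change was -0.20 ± 0.11 (adjusted p 0.158) after 2 days, 0.30 ± 0.11 (adjusted p 0.0488, 0.0752 with the replicate block) after 20 days and 0.42 ± 0.11 (adjusted p 0.00641, 0.107 with the replicate block, 0.0845 as deposited) after 30 days. Cox4i2, a form known from lung and from cells low in oxygen, was near the detection floor at 1.29 to 3.90 (median 1.70) in the contralateral muscles and at 2.00, 3.11 and 2.06 after 2 days, 4.4, 3.56 and 3.29 after 10 days, 2.69, 3.14 and 2.82 after 20 days and 2.84, 3.00 and 2.63 after 30 days in the trained ones. After 10 days 1 of 3 muscles was above every control and all 3 were above their own contralateral muscle. The log2 fold change at that time was 0.66 ± 0.20 (adjusted p 0.0149). Cox6b1, which binds cytochrome c from the outer side, was at 249 to 363 (median 286) in the contralateral muscles and 352, 377 and 319 after 30 days, with 1 of 3 above the controls. On the log2 scale the difference was -0.21 ± 0.11 (adjusted p 0.164) after 2 days and 0.27 ± 0.11 (adjusted p 0.101) after 30 days.

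**Figure D2:**
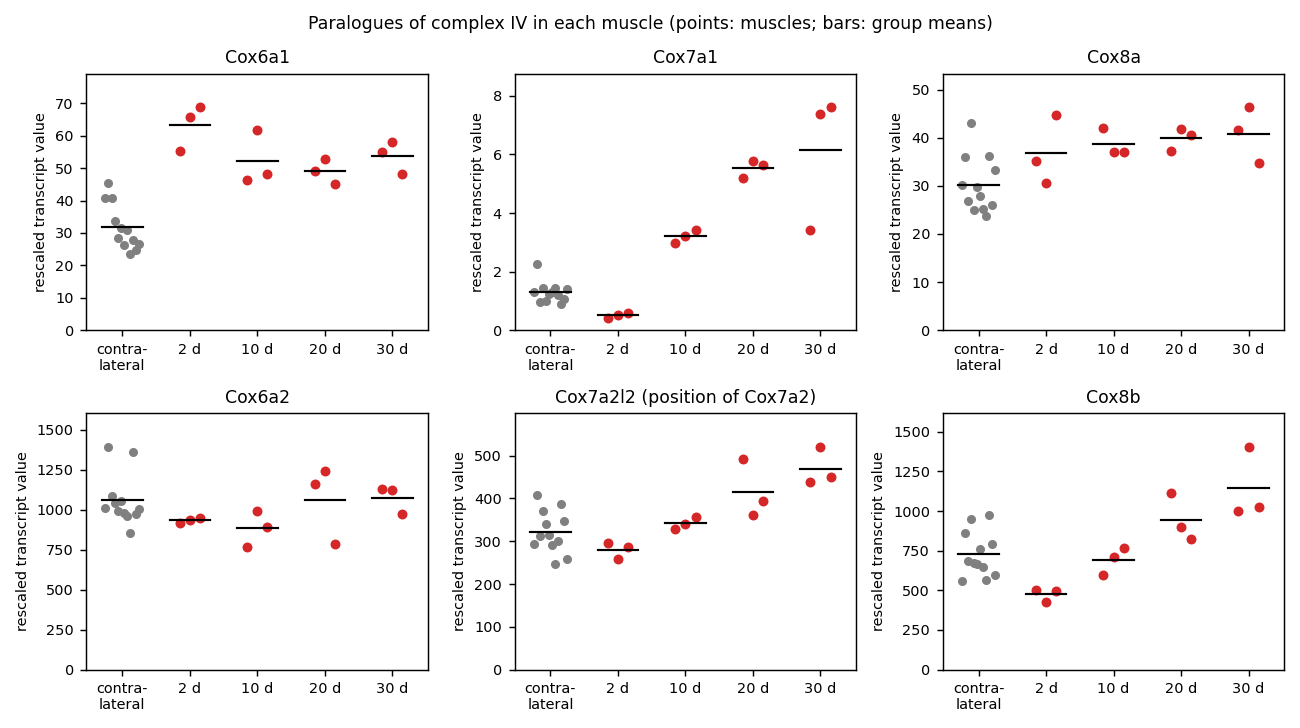
Rescaled transcript value (vertical axes, each from 0) of 6 genes of complex IV in each muscle, by group (horizontal axes), with points for muscles and bars for group means. Cox7a1 after 30 days is at 3.42, 7.38 and 7.61 against at most 2.26 in the contralateral muscles, while Cox6a2 overlaps its controls at each time.

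Of the 15 tested subunits of complex IV, 1 rose and 2 fell after 2 days, 3 rose after 10 days, 5 rose after 20 days and 11 rose after 30 days. In the same order 15.4% of all genes rose and 13.5% fell, and 15.6%, 11.7% and 11.1% rose. The 11 were Cox4i1, Cox5a, Cox5b, Cox6a1, Cox6c, Cox7a1, Cox7a2l2, Cox7b, Cox7c, Cox8a and Cox8b. Among the subunits without tissue forms, Cox7b was at 435 to 697 (median 532) in the contralateral muscles and 723, 866 and 753 after 30 days, with all 3 above every control. As a log2 fold change this was 0.51 ± 0.12 (adjusted p 0.00243). Cox5b, a zinc-binding subunit on the matrix side, was at 311 to 483 (median 359) in the contralateral muscles, 302, 293 and 297 after 2 days and 458, 558 and 487 after 30 days. All 3 values were below the controls at 2 days, and 2 of 3 were above them at 30 days. The log2 fold change was -0.29 ± 0.12 (adjusted p 0.0727) and 0.45 ± 0.12 (adjusted p 0.00867, 0.106 with the replicate block, 0.0780 as deposited). The median over complex IV was -0.21, -0.05, 0.24 and 0.43 at the 4 times. Medians with the other sign were 0.07 after 10 days as deposited, and 0.19 after 10 days and -0.01 after 30 days in the gene-level table, and 0.03 after 10 days in that table with its own median-of-ratios factors. With the replicate block 4 of the 11 rises at 30 days passed (all genes 7.21%), and as deposited 5 of the 15 genes rose (all genes 5.74%).

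In complex V 7 of 17 genes fell after 2 days (all genes 13.5%) and 11 rose after 30 days (all genes 11.1%). Under the replicate block 4 fell after 2 days (all genes 9.80%), 2 rose after 20 days (all genes 9.94%) and 2 rose after 30 days (all genes 7.21%). As deposited 5 fell after 2 days (all genes 6.49%), 2 rose after 10 days (all genes 18.6%), 5 rose after 20 days (all genes 10.3%) and 5 rose after 30 days (all genes 5.74%). The rises after 30 days took in all 4 genes of the peripheral stalk, 2 of 3 genes of the c ring, 3 of 4 other membrane subunits, 1 of 5 genes of the F1 head and the inhibitor Atp5if1. The alpha and beta genes, which form the catalytic sites, did not pass at 30 days. Atp5f1b, the catalytic beta subunit and the most abundant member, was at 1561 to 1962 (median 1757) in the contralateral muscles and at 1622, 1265 and 1578 after 2 days, 1185, 1330.3 and 1476 after 10 days, 1739.97, 1641 and 1469.6 after 20 days and 1867, 1891 and 1485 after 30 days in the trained ones. All 3 muscles were below every control after 10 days, and the 30-day muscles were within or below the control range. Limma gave a log2 fold change of -0.23 ± 0.10 (adjusted p 0.0836, 0.0459 with the replicate block) after 2 days and -0.39 ± 0.10 (adjusted p 0.00444, 0.0928 as deposited) after 10 days, and the adjusted p after 30 days was 0.992. Atp5f1a, the alpha subunit, was at 1115 to 1405 (median 1234) in the contralateral muscles and at 1054, 750.3 and 927 after 2 days, 1022, 1164 and 1191 after 10 days, 1483, 1364 and 1099.7 after 20 days and 1459.5, 1533 and 1300.03 after 30 days in the trained ones. It was below every control in all 3 muscles after 2 days and above them in 2 of 3 after 30 days, at -0.45 ± 0.10 (adjusted p 0.00142) and 0.21 ± 0.10 (adjusted p 0.147, log2 fold change -0.01 as deposited). Atp5f1c, the gamma subunit that turns inside the head, was at 379 to 547 (median 439.98) in the contralateral muscles and 554, 642 and 584 after 30 days, above every control, at 0.42 ± 0.11 (adjusted p 0.00966, 0.156 with the replicate block, 0.112 as deposited).

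The peripheral stalk holds the head still while the rotor turns, and each of its 4 genes rose after 30 days (all genes 11.1%). Atp5pf was at 138 to 215 (median 167) in the contralateral muscles and at 136, 122 and 138 after 2 days, 158, 178 and 163 after 10 days, 242, 173 and 203 after 20 days and 229, 278 and 266 after 30 days in the trained ones. After 2 days 2 of 3 muscles were below every control, and after 30 days all 3 were above every control. The fit put the log2 fold change at -0.38 ± 0.12 (adjusted p 0.0171, 0.0582 with the replicate block) after 2 days and 0.57 ± 0.12 (adjusted p 0.00105) after 30 days. Atp5pd was at 254 to 386 (median 291) in the contralateral muscles and 418, 477 and 463 after 30 days, all above every control, at 0.58 ± 0.12 (adjusted p 0.00174, 0.0841 with the replicate block). Atp5po, the subunit that ties the stalk to the head, was at 359.7 to 544 (median 407) and 605, 672 and 599, again all above, at 0.55 ± 0.12 (adjusted p 0.00253, 0.0788 with the replicate block). Atp5pb was at 217 to 321 (median 257) and 356, 439 and 328, all above, at 0.49 ± 0.12 (adjusted p 0.00587, 0.0618 as deposited). Their median log2 fold change was -0.36, -0.05, 0.26 and 0.56 at the 4 times, and that of the 5 F1 genes was -0.28, -0.14, 0.11 and 0.21. As deposited the 10-day stalk median (0.07) and the 30-day F1 median (-0.01) had the other sign. The difference between these subgroups was not tested. As deposited 3 of the 4 stalk genes rose after 30 days (all genes 5.74%). After 2 days 3 of the 4 fell (all genes 13.5%), and 2 fell as deposited (all genes 6.49%). With the replicate block 0 fell by limma after 2 days (all genes 9.80%) and 2 rose after 30 days (all genes 7.21%).

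The c ring, the rotor in the membrane, draws the same mature protein from 3 genes. Of these 1 fell after 2 days (all genes 13.5%), and 2 rose after 30 days (all genes 11.1%). The 30-day count was 0 with the replicate block (all genes 7.21%) and 1 as deposited (all genes 5.74%). Differences between the genes were not tested. Atp5mc3, the most abundant, was at 578 to 885 (median 654) in the contralateral muscles and at 565, 438 and 518 after 2 days, 585, 715 and 626 after 10 days, 955, 807 and 725 after 20 days and 949, 1048 and 886 after 30 days in the trained ones. All 3 muscles were below every control after 2 days and above every control after 30 days. Against the pooled controls the log2 fold change was -0.43 ± 0.12 (adjusted p 0.00940) after 2 days and 0.49 ± 0.12 (adjusted p 0.00485, 0.0809 with the replicate block) after 30 days. Atp5mc1 was at 289.7 to 505 (median 343) and 492, 545 and 445 after 30 days, with 1 of 3 above every control, at 0.47 ± 0.13 (adjusted p 0.0138, 0.0708 with the replicate block, 0.0874 as deposited). Atp5mc2 was at 159 to 245 (median 190.5) and 196, 212 and 177, within the control range, at 0.02 ± 0.11 (adjusted p 0.911, log2 fold change -0.20 as deposited). The share of Atp5mc2 in the 3 genes was 13.5% to 17.6% in the contralateral muscles, 16.1, 18.9 and 17.8% after 2 days and 12, 11.8 and 11.7% after 30 days. It was above every control in 2 of 3 muscles at 2 days and below every control in all 3 at 30 days.

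Among the other membrane subunits, Atp5me, which helps complex V form dimers, had the lowest 2-day fold change of the complex. It was at 101 to 181 (median 130.2) in the contralateral muscles and at 90.7, 71.5 and 88.6 after 2 days, 114, 125 and 104 after 10 days, 185, 120.1 and 151 after 20 days and 146, 216 and 159.9 after 30 days in the trained ones. All 3 of the 2-day values were below every control, and the 30-day values overlapped them in 2 of 3 cases. On the log2 scale the difference was -0.65 ± 0.16 (adjusted p 0.00272) after 2 days and 0.39 ± 0.16 (adjusted p 0.0813) after 30 days. Atp5mf was at 298 to 421 (median 335) in the contralateral muscles and 449, 526 and 469.9 after 30 days, all above every control, at 0.46 ± 0.10 (adjusted p 0.00201, 0.0547 with the replicate block). Atp5mg was at 409 to 641 (median 484) and 588, 676 and 600.1, 1 of 3 above, at 0.33 ± 0.12 (adjusted p 0.0447, 0.122 with the replicate block, 0.476 as deposited). Atp5md was at 81.3 to 167 (median 95.4) and 117, 184 and 133, 1 of 3 above, at 0.48 ± 0.16 (adjusted p 0.0353, 0.108 with the replicate block, 0.179 as deposited).

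Atp5if1, which stops complex V from running backwards and splitting ATP, was at 45.6 to 61.1 (median 50.7) in the contralateral muscles and at 44, 63.7 and 70.9 after 2 days, 82.8, 116 and 62.7 after 10 days, 67.2, 60.5 and 63.8 after 20 days and 70.2, 78.4 and 72.8 after 30 days in the trained ones. All 3 muscles were above every control after 10 and after 30 days. After 2 days 2 of 3 were above and 1 was below every control, and after 20 days 2 of 3 were above. As a log2 fold change this was 0.16 ± 0.14 (adjusted p 0.411) after 2 days, 0.68 ± 0.14 (adjusted p 0.000576) after 10 days, 0.29 ± 0.14 (adjusted p 0.155) after 20 days and 0.49 ± 0.14 (adjusted p 0.0135, 0.258 with the replicate block, 0.113 as deposited) after 30 days. Atp5f1d, the delta subunit of the head, had the highest 20-day fold change of the complex, 0.39 ± 0.15 (adjusted p 0.0663, 0.0304 with the replicate block), with 2 of 3 muscles above every control. Over all 17 genes the median was -0.30, -0.06, 0.24 and 0.46. Medians with the other sign were 0.07 after 10 days as deposited, and 0.19 after 10 days in the gene-level table, and 0.02 after 10 days in that table with its own median-of-ratios factors.

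A direct contrast of the trained groups asked whether the level of a member differed between days of training. Of the 46 members 34 were higher and 0 lower by limma after 30 days than after 2 days, against 7.07% and 7.91% of all genes, with 35 at an unadjusted p under 0.05. Their median difference was 0.66. By complex the count was 2 of 4 in complex II, 8 of 9 in complex III, 10 of 15 in complex IV and 13 of 17 in complex V, and Cycs. The widest difference was that of Cox7a1, 2.19 ± 0.19 (adjusted p 1.61e-07), followed by Cox8b at 1.25 ± 0.20 (adjusted p 0.000183, 0.0559 with the replicate block) and Atp5me at 1.03 ± 0.20 (adjusted p 0.00103, 0.0771 with the replicate block). Cox6a1, which was high at both times, stood at -0.23 ± 0.20 (adjusted p 0.473), at 0.43 with the replicate block and at -0.56 as deposited (adjusted p 0.0397), where it was the member called lower. Its contralateral levels were 40.7, 45.5 and 40.8 in the 2-day rats and 27.7, 24.8 and 26.7 in the 30-day rats. Sdha stood at 0.26 ± 0.14 (adjusted p 0.197), and as deposited at -0.07. When the rat was a replicate block, where the contrast becomes the difference of the training effects within rats, 5 of the 34 passed: Cox7a1, Cox7b, Atp5mc3, Atp5pb and Atp5pf, against 1.35% of all genes. With time-matched controls 17 passed, against 1.38% of all genes higher, and 20, against 1.32%, without contralateral muscle 1 of the 30-day rats. As deposited 22 were higher and 1 lower (all genes 2.22% and 27%, median shift -0.27). In the gene-level values 4 were higher and 8 lower (all genes 1.01% and 66%), with 41 of 44 above the all-gene median of -0.48.

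Between 10 and 30 days of training 12 members were higher and 0 lower by limma, against 1.65% and 2.29% of all genes, and 32 had an unadjusted p under 0.05. The median difference was 0.40. The 12 were Atp5f1c, Atp5mc3, Atp5pb, Atp5pf, Atp5po, Cox5b, Cox7a1, Cox7b, Cox8b, Cycs, Sdhc and Uqcrc2. The count was 0 in limma without trained muscle 1 of 10 days, 2 and 7 without trained muscles 2 and 3 of that time, and 5, 1 and 2 without trained muscles 1, 2 and 3 of 30 days. The shares of all genes in these fits are not given. With the replicate block 0 of the 12 passed, against 0.0179% of all genes higher, and 26 members had an unadjusted p under 0.05. With time-matched controls 0 passed as well, against 0% of all genes higher, with 28 at an unadjusted p under 0.05, and without contralateral muscle 1 of the 30-day rats 0 passed in limma, against 0.0268% of all genes higher, and the unadjusted count was 31. As deposited 1 was higher and 1 lower (all genes 0.435% and 18%), where the median of all genes shifted to -0.27. In the gene-level values 0 were higher and 17 lower in limma (all genes 0.410% and 75.7%), with 23 at an unadjusted p under 0.05, and 37 of 44 were above its all-gene median of -0.49.

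Summed over all 47 members, the level was 15603 to 21843 (median 17313) in the contralateral muscles. It was 15327, 13136 and 15102 after 2 days, 14966, 17445 and 17011 after 10 days, 22114, 19428 and 17784 after 20 days and 21591, 24656 and 20664 after 30 days. All 3 of the 2-day sums were below every control, 1 of 3 was at 10 days, and 1 of 3 was above every control at each of 20 and 30 days. Within rats, the trained muscle was below its own contralateral muscle in 3 of 3 rats after 2 days and above it in 3 of 3 after 20 and after 30 days. The 2-day pairs, trained muscle first, were 15327 against 16957, 13136 against 21843 and 15102 against 18052. The pair of rat 2 had the widest gap, between the lowest trained sum and the highest control sum. The 6 mitochondrially encoded partners in complexes III, IV and V (Mt-cyb, Mt-co1, Mt-co2, Mt-co3, Mt-atp6 and Mt-atp8) summed to 110825 to 233431 (median 125718) in the contralateral muscles. Their trained sums were 99427, 94878 and 116751 after 2 days, 93709.9, 102705 and 108396 after 10 days, 164297, 136650 and 140507 after 20 days and 186389, 238488 and 227760 after 30 days. After 10 days all 3 were below every control, and after 30 days 1 of 3 was above the highest control, which was muscle 1 of the 30-day rats. Of the 6, 0 rose and 1 fell (0 with the replicate block) after 2 days, and 0 rose and 2 fell (0 with the replicate block) after 10 days. After 20 days 0 rose and 0 fell by limma, and after 30 days 6 rose (0 with the replicate block) and 0 fell. Of all genes 15.4%, 15.6%, 11.7% and 11.1% rose and 13.5%, 13.3%, 9.64% and 9.46% fell at the 4 times. With the replicate block 9.80% and 8.003% of all genes fell after 2 and 10 days, and 7.21% rose after 30 days. At 30 days Mt-co1, the most abundant, stood at 0.79 ± 0.17 (adjusted p 0.00145, 0.159 with the replicate block). These RNAs were read from a poly-A library.

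**Figure D3:**
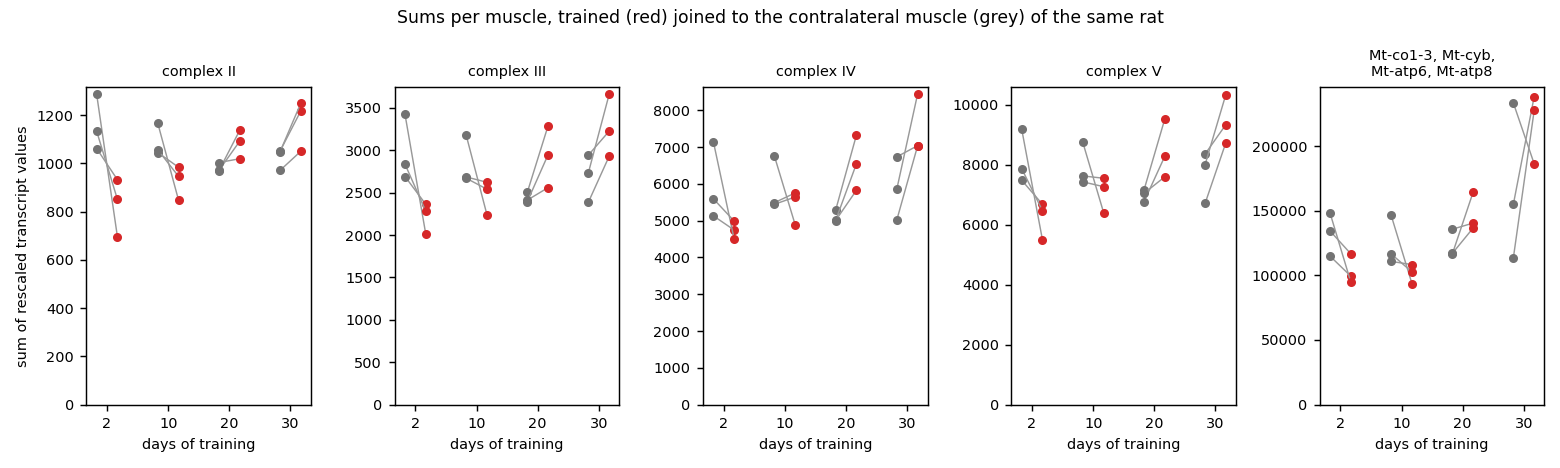
Summed rescaled value (vertical axes, each from 0) of the nuclear members of each complex and of the mitochondrially encoded partners, by days of training (horizontal axes), with each trained muscle (red) joined to the contralateral muscle of the same rat (grey). In the panels of complexes II to V the trained point lies above its partner in 3 of 3 rats after 30 days, and the partner panel has 2 of 3.

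The ratio of mitochondrially encoded to nuclear RNA within a complex does not depend on the scaling of a muscle. For complex IV it was 13.6 to 23.4 (median 15) in the contralateral muscles, 12.9, 11.8 and 12.9 after 10 days and 18.1, 19.1 and 22.2 after 30 days. For complex III it was 5.61 to 10.9 (median 6.92), 5.83, 5.65 and 6.05 after 10 days and 7.45, 8.42 and 9.71 after 30 days. For complex V it was 2.74 to 5.19 (median 3.17), 2.77, 2.67 and 2.79 after 10 days and 3.78, 4.52 and 4.97 after 30 days. The 30-day ratios were above the control median and within the control range in all 3 complexes, but the top of that range was contralateral muscle 1 of the 30-day rats. In the other controls the highest ratio was 18.3 for complex IV, 7.97 for complex III and 3.65 for complex V, and 2, 2 and 3 of the 3 30-day muscles were above it. The 10-day ratios were below the control median, for complex IV below every control. No ratio was tested.

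Other genes of the same pathway were counted on the same fit, in which 15.4%, 15.6%, 11.7% and 11.1% of all genes rose and 13.5%, 13.3%, 9.64% and 9.46% fell at the 4 times. The shares were 11.8%, 12.1%, 9.94% and 7.21% and 9.80%, 8.003%, 7.42% and 5.09% with the replicate block, and 18.9%, 18.6%, 10.3% and 5.74% and 6.49%, 6.06%, 6.62% and 23% as deposited. Of 45 genes of the complex I name pattern, 8 of them Ndufaf assembly factors, 0 rose and 12 fell (10 with the replicate block, 7 as deposited) after 2 days, 1 rose and 3 fell (2 with the replicate block, 1 as deposited) after 10 days, 2 rose (4 with the replicate block, 3 as deposited) and 0 fell after 20 days and 16 rose (4 with the replicate block, 5 as deposited) and 0 fell (1 as deposited) after 30 days. Their medians were -0.27, -0.10, 0.15 and 0.30, with 0.02 after 10 days as deposited. Ndufb9, the most abundant of them, was at 384 to 603 (median 436) in the contralateral muscles and 689.6, 861 and 841 after 30 days, all above every control. The log2 fold change was 0.79 ± 0.13 (adjusted p 0.000101), the highest of the list at that time, and Ndufv3 had the lowest 2-day fold change at -0.67 ± 0.12 (adjusted p 0.000192). Of 34 tested assembly factors of complexes II to V, 0 rose and 7 fell (4 as deposited) after 2 days, 0 rose and 8 fell (3 with the replicate block, 4 as deposited) after 10 days, 0 rose and 1 fell after 20 days and 2 rose (1 with the replicate block, 0 as deposited) and 1 fell (3 as deposited) after 30 days, with medians of -0.18, -0.15 and 0.07 after 2, 10 and 30 days, and -0.13 after 30 days as deposited. Tmem70, which helps assemble complex V, was at 24.2 to 33.8 (median 28.8) in the contralateral muscles and 17.2, 14.3 and 19.4 after 2 days, all below every control. Limma gave a log2 fold change of -0.76 ± 0.11 (adjusted p 1.36e-05) after 2 days and -0.04 ± 0.11 (adjusted p 0.827) after 30 days. Sdhaf2, which puts the flavin into Sdha, fell at all 4 times, at -0.60 ± 0.09 (adjusted p 1.18e-05) after 2 days and -0.33 ± 0.09 (adjusted p 0.00714, 0.114 with the replicate block) after 30 days. Coa5, the most abundant, stood at -0.51 ± 0.11 (adjusted p 0.000939, 0.0570 as deposited) after 2 days and 0.11 ± 0.11 (adjusted p 0.526, log2 fold change -0.11 as deposited) after 30 days.

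Of 13 tested enzymes of the citric acid cycle, 0 rose and 10 fell (8 with the replicate block, 4 as deposited) after 2 days, 0 rose and 5 fell (3 with the replicate block, 1 as deposited) after 10 days, 0 rose and 1 fell (0 with the replicate block, 0 as deposited) after 20 days and 2 rose (0 with the replicate block, 0 as deposited) and 0 fell (1 as deposited) after 30 days, with medians of -0.36, -0.15, 0.08 and 0.21, and -0.01 after 30 days as deposited. Sucla2, a succinyl-CoA synthetase subunit, had the lowest 2-day fold change at -0.56 ± 0.11 (adjusted p 0.000622), and Idh3a the highest 30-day fold change at 0.36 ± 0.12 (adjusted p 0.0294, 0.178 with the replicate block, 0.393 as deposited).

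Of 14 tested regulators of mitochondrial genes, 2 rose (1 with the replicate block) and 2 fell (1 as deposited) after 2 days, 1 rose and 2 fell (1 with the replicate block, 1 as deposited) after 10 days, 1 rose and 2 fell (0 with the replicate block, 1 as deposited) after 20 days and 1 rose and 1 fell (5 as deposited) after 30 days. Of all genes 15.4%, 15.6%, 11.7% and 11.1% rose and 13.5%, 13.3%, 9.64% and 9.46% fell at these times. Ppargc1a, a coactivator of mitochondrial gene transcription, was at 1.61 to 4.24 (median 3.29) in the contralateral muscles and at 8.65, 4.57 and 4.12 after 2 days, 10.7, 8.14 and 20.2 after 10 days, 7.92, 8.93 and 5.36 after 20 days and 10.5, 7.68 and 11.5 after 30 days in the trained ones. The trained muscles were above every control except 1 at 2 days. The fit put the log2 fold change at 0.69 ± 0.23 (adjusted p 0.0287) after 2 days, 1.70 ± 0.23 (adjusted p 5.28e-06) after 10 days, 1.03 ± 0.23 (adjusted p 0.00214) after 20 days and 1.41 ± 0.23 (adjusted p 0.000114) after 30 days. Tfb2m, a factor that starts transcription of mitochondrial DNA, had the lowest fold changes after 2 days, -0.48 ± 0.10 (adjusted p 0.00133), and after 10 days, -0.54 ± 0.10 (adjusted p 0.000383). Ppard, a nuclear receptor, had the lowest after 30 days, -0.63 ± 0.14 (adjusted p 0.00274, 0.110 with the replicate block). Esrra, the most abundant regulator, stood at -0.19 ± 0.13 (adjusted p 0.287) after 2 days and -0.12 ± 0.13 (adjusted p 0.574) after 30 days.

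Markers of fibres and of other cell types were counted in the same muscles, where 15.4%, 15.6%, 11.7% and 11.1% of all genes rose and 13.5%, 13.3%, 9.64% and 9.46% fell at the 4 times. Of 8 macrophage markers 6 rose (8 with the replicate block) after 2 days, 7 rose (8 as deposited) after 10 days, 8 rose after 20 days and 8 rose after 30 days. Their sum was 9.41 to 26.4 (median 17) in the contralateral muscles and 26.6, 65.4 and 45.2 after 2 days, 71.2, 59.3 and 31 after 10 days, 41.9, 44.5 and 49.4 after 20 days and 38.5, 53.8 and 45.3 after 30 days, above every control in all 12 trained muscles. C1qc was the most abundant, and Cd68 was listed at 0 in the lowest contralateral muscle. Of 6 fibroblast markers 4 rose (5 with the replicate block) after 2 days, 5 rose after 10 days, 5 rose (4 with the replicate block) after 20 days and 5 rose (4 with the replicate block, 4 as deposited) after 30 days, and their sum, led by Col3a1, was 75.1 to 254 (median 174) in the contralateral muscles and 302, 497 and 411 after 2 days, 983, 595 and 518 after 10 days, 599, 563 and 615 after 20 days and 356, 406 and 416 after 30 days, again above every control. Of 7 tested myofibre markers 2 rose and 2 fell after 2 days, 5 rose (3 with the replicate block) and 2 fell after 10 days, 3 rose and 2 fell (1 with the replicate block) after 20 days and 2 rose and 2 fell (1 with the replicate block) after 30 days. Their sum, led by Acta1, was 48427 to 60038 (median 53693) in the contralateral muscles and 51887, 53968 and 53195 after 2 days, 56954, 75112 and 55963 after 10 days, 68180.4, 70376 and 42595 after 20 days and 52960.1, 56995 and 48742 after 30 days. It exceeded the sum of all nuclear members in every muscle. Mb, the oxygen-binding myoglobin of the fibres, was at 5363 to 8937 (median 6499) in the contralateral muscles, 4529, 3962 and 4262 after 2 days and 11640.4, 10565 and 9105 after 30 days. By limma Mb stood at -0.64 ± 0.13 (adjusted p 0.000532) after 2 days and 0.57 ± 0.13 (adjusted p 0.00156) after 10 days. Its later values were 0.74 ± 0.13 (adjusted p 0.000184) after 20 days and 0.65 ± 0.13 (adjusted p 0.000877) after 30 days. The part of these cell types in the results for the subunits was not tested.

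Of 6 slow myofibre markers 3 fell (0 with the replicate block, 1 as deposited) after 2 days, 1 fell (0 with the replicate block) after 10 days, 0 fell (1 with the replicate block) after 20 days and 0 fell (2 as deposited) after 30 days. Their sum, led by Myl3, was 1109.97 to 2304 (median 1429) in the contralateral muscles and 957, 721 and 1079 after 2 days, 817, 1839.6 and 577 after 10 days, 1266, 1121 and 1355 after 20 days and 1385, 1621 and 918 after 30 days. Myh7, the slow myosin, was at 132 to 301 (median 212) in the contralateral muscles and 136, 75.4 and 141 after 2 days, at -0.90 ± 0.26 (adjusted p 0.0111, 0.0750 with the replicate block), and at 142, 209 and 98.4 after 30 days, at -0.56 ± 0.26 (adjusted p 0.130, 0.0281 as deposited). Of 5 tested endothelial markers 1 fell (0 with the replicate block, 0 as deposited) after 2 days, 2 rose after 10 days, 2 rose after 20 days and 2 rose (1 with the replicate block, 0 as deposited) after 30 days, and their sum, led by Cdh5, was 29.6 to 39.8 (median 33.4) in the contralateral muscles and 28.8, 26.4 and 28.7 after 2 days, 36.9, 33.8 and 63 after 10 days, 51.8, 58.6 and 48 after 20 days and 52.8, 43.3 and 41.6 after 30 days. It was below every control after 2 days and above every control after 20 and 30 days. Of 4 Schwann markers 1 rose (0 with the replicate block) after 2 days, 0 rose (1 with the replicate block, 1 as deposited) after 10 days and 2 fell (0 with the replicate block) after 30 days, with a sum, led by Pmp22, of 10.6 to 29.3 (median 16.6) in the contralateral muscles, 15.4, 37.7 and 27.8 after 2 days and 14.2, 14.2 and 12 after 30 days. Of 3 tested satellite cell markers 1 rose (0 with the replicate block) and 1 fell after 2 days, 1 rose after 10 days and 0 rose (1 with the replicate block) after 30 days, and the sum of 4, led by Cdh15, was 6.32 to 11.7 (median 8.25) and 10.0, 6.19 and 10.1 after 30 days, with Pax7 not tested. Of 3 smooth muscle markers 2 rose (0 with the replicate block) after 2 days and 1 rose (2 as deposited) after 10 days, with a sum, led by Tagln, of 33.2 to 72.8 (median 43) in the contralateral muscles, 71.9, 95.2 and 70.2 after 2 days and 62.1, 46.7 and 46.9 after 30 days. Of 4 adipocyte markers 0 rose (1 with the replicate block) after 2 days, 2 rose (0 with the replicate block) after 10 days, 2 rose after 20 days and 2 rose (0 as deposited) after 30 days, with a sum, led by Fabp4, of 88.5 to 186 (median 122) in the contralateral muscles, 116, 119.6 and 104 after 2 days and 184, 216 and 165 after 30 days. Of 4 neutrophil markers 2 were in the table and 0 were high enough to be tested in limma, at sums of 0 to 2.44 in the contralateral muscles.

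Promoter sequences were read for short motifs, and each motif was found in a minority of the members. The RefSeq promoter table, on GRCr8, matched 39 of the 47 members, taking Cox7a2 for the row labelled Cox7a2l2, and lacked Atp5md, Atp5pd, Cox4i2, Cox6a1, Cox6c, Cyc1, Uqcr11 and Uqcrb. The 250 bases before each gene start were searched on both strands for 4 motifs of factors known for mitochondrial genes. NRF1, spelled GCGCANGCG, was found in 8 of 39 members (20.5%) and in 5.09% of all 33469 promoters. GABP, spelled CCGGAAGT, was found in 5 members (12.8%) and in 3.10% of all promoters. ERR, spelled TCAAGGTCA, was found in Atp5mc3 and in 0.388% of all promoters, and YY1, spelled AAGATGGCG, in Atp5pf and in 0.693%. All promoters were not matched to the members in expression or base content, and the differences in share were not tested. The NRF1 motif was in members that were higher after 30 than after 2 days, such as Atp5me, Atp5po and Cycs. It was also in members that did not pass that contrast, Sdha, Atp5mc2 and Cox7a2l. Cox8a, which holds the GABP motif, did not pass it either. The stretches below show 6 of the matches in members that passed the contrast, with the motif in capitals, in 5′ to 3′ order on the strand of the gene. In Uqcrh, Atp5mc3 and Cycs the letters stand as their reverse complement. A match is a description of letters and not a bound site.
Atp5me, NRF1 motif, chr14:1464768-1464808, plus strand: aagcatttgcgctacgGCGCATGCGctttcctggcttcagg
Atp5po, NRF1 motif, chr11:44657518-44657558, minus strand: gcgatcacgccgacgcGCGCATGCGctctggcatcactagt
Cycs, NRF1 motif, chr4:80984901-80984941, minus strand: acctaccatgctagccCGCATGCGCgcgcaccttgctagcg
Uqcrh, GABP motif, chr5:134790943-134790982, minus strand: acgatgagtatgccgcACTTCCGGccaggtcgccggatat
Atp5mc3, ERR motif, chr3:79220697-79220737, minus strand: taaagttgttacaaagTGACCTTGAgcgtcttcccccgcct
Atp5pf, YY1 motif, chr11:37375188-37375228, minus strand: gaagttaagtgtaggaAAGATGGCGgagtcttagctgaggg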

How the data were processed

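RNA was sequenced from 24 muscles. According to the submitters' processing notes and the study's methods, the authors trimmed the reads, aligned them with STAR to Rnor_6.0 (rn6) in Partek and quantified them to Ensembl transcripts, and the notes also name DESeq2. The deposited transcript table holds TPM-type values, scaled by the authors for transcript length to 1 total per muscle, for 20027 transcripts. The deposited gene-level table holds a signal per gene for 4635 genes, scaled by the authors by gene span and by a factor per muscle. For 2570 genes with a single transcript, the log2 ratio of both tables, less a value per gene and per muscle, had an SD of 0.00052. For these genes both tables hold the same signal on different scales. Another table with the authors' own comparisons of control and each time (p-values, ratios and least-squares means) was not used. The methods name median-of-ratios scaling, whereas all columns of the transcript table have the same total. No table holds counts, so the depth behind each value is unknown and count models were not run.

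The transcript values were divided by median-of-ratios factors (0.778 to 1.14) from 16230 transcripts above 0 in all muscles, summed per gene symbol and kept where at least 1 in at least 3 muscles. A joint model of 5 groups (limma 3.58.1, R 4.3.3) was applied to log2(value + 1), with Benjamini-Hochberg adjustment over 11196 genes and a threshold of 0.05, after a trial on simulated data. Tables and plots were made with Python 3.11.15, pandas 2.3.3, numpy 2.4.6 and matplotlib 3.10.9.

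Left and right muscles came from the same rat. After group means were removed, profiles of the same rat correlated at a median r of 0.174 over 12 pairs, against -0.0096 over 132 pairs of other rats, and 0 of 276 pairs of libraries were identical. The rat was therefore also fitted as a replicate block.

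Alternatives were the values as deposited, factors from gene sums, a pseudocount of 0.1, no filter, thresholds of 0.01, the replicate block, time-matched controls, the most abundant transcript per gene, an intensity trend, the gene-level table and each muscle left out. After the data were seen, 3 were added: the gene-level table with its own median-of-ratios factors, the single-span loci of Uqcrb and Cox6b1 left out, and time-matched controls without contralateral muscle 1 of the 30-day rats.

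Named genes were tissue forms of subunits, in each complex the most abundant member and those with the largest rise and fall at each time, single members by role, and of the other lists the most abundant gene and single genes with a largest rise or fall. Of the genes selected from the other lists, 1 is not reported. Uqcrb, Uqcrc1, Sdhd, Cox5b, Cox7b, Atp5f1c, Atp5pb, Atp5pf, Atp5po, Atp5mf, Atp5mg, Atp5md, Mb, Myh7, Sdhaf2 and the other genes listed by a count were named after their values were seen. The lists were the members by complex and by role in complex V, mitochondrially encoded partners, complex I, assembly factors, citric acid cycle, regulators, and markers of myofibres, slow myofibres, endothelium, macrophages, fibroblasts, Schwann cells, satellite cells, neutrophils, smooth muscle and adipocytes. Members and lists were chosen with earlier results of these data known.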

Additional observations from a re-analysis of the deposited data

Results flagged for a closer look

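For 18 named members the level in the trained muscles differed between 2 and 30 days by the direct contrast in limma. Of all genes 7.07% were higher and 7.91% lower in that contrast. Some of the 18 were named for the largest rise or fall at 2 or 30 days, so their number is not independent support. The log2 differences of 30 minus 2 days were Atp5f1a 0.66, Atp5mc1 0.72, Atp5mc3 0.93, Atp5me 1.03, Atp5pd 0.88, Cox4i1 0.63, Cox6b1 0.48, Cox7a1 2.19, Cox7a2l2 0.74, Cox8b 1.25, Cyc1 0.48, Cycs 0.78, Sdhb 0.66, Sdhc 0.71, Uqcrc2 0.67, Uqcrfs1 0.53, Uqcrh 0.87 and Uqcrq 0.66. Their adjusted p-values ran from 1.61e-07 to 0.0332. Of these, Cox7a1 and Atp5mc3 passed with the replicate block, where the contrast is the difference of the training effects within rats, at adjusted p of 0.000448 and 0.0394, and the other adjusted p-values with the block were 0.0559 to 0.142. As deposited 13 of the 18 passed. Those with the other sign in the gene-level table without rescaling included Cox4i1 -0.0271, Cox6b1 -0.23, Cyc1 -0.17 and Uqcrfs1 -0.12.

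For 6 named members the level in the trained muscles differed between 10 and 30 days. Of all genes 1.65% were higher and 2.29% lower in that contrast, and some of the 6 were named for a large change at 10 or 30 days. The log2 differences of 30 minus 10 days were Atp5mc3 0.58, Cox7a1 0.70, Cox8b 0.72, Cycs 0.61, Sdhc 0.51 and Uqcrc2 0.50, with adjusted p-values from 0.0344 to 0.0490, and from 0.223 to 0.406 with the replicate block. As deposited they were 0.0818 to 0.489. In the gene-level table without rescaling, those with the other sign included Atp5mc3 -0.12, Cycs -0.0902, Sdhc -0.18 and Uqcrc2 -0.20.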

How the results depend on the processing

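Counts of members changed are given in the order 2, 10, 20 and 30 days, 30 against 2 and 30 against 10 days of training (16, 7, 5, 27, 34 and 12 in the report), and the cause of each move was not tested. Leaving out each muscle in turn gave ranges of 3 to 19, 3 to 8, 2 to 10, 9 to 29, 26 to 35 and 0 to 17. Where no share of all genes stands beside a count, a move of the members cannot be told from a move of all genes. With the replicate block the last 3 counts were 6, 5 and 0, and it changed none of the first 3 counts by over 1.5 times. With time-matched controls the last 4 were 8, 7, 17 and 0, and without contralateral muscle 1 of the 30-day rats 8, 11, 20 and 0. With values as deposited, 20 days gave 11, 30 days 11 and 30 against 10 days 2. A pseudocount of 0.1 gave 3 at 20 days and 6 at 30 against 10 days. An adjusted p under 0.01 gave 9, 4, 2 and 15 at the 4 times and 1 at 30 against 10 days, where an unadjusted p under 0.01 gave 23. The gene-level table gave 4 at 2 days, 8 at 30 days and 12 at 30 against 2 days, and with its own median-of-ratios factors 15 at 20 days and 26 at 30 against 10 days. In the gene-level table without those factors, which holds the signal on another scale, many log2 fold changes had the other sign. The median of all genes there was 0.11, 0.12, -0.09, -0.35, -0.48 and -0.49 in the order above. Members above 0 numbered 5, 14, 40, 43, 45 and 43 of 46 in the report. In that table they numbered 10, 38, 33, 17, 24 and 1 of 44. Single genes are named for the last 3 comparisons, and the lists are not complete. At 30 days those with the other sign included Atp5f1a -0.25, Atp5mc2 -0.40, Cox4i1 -0.0334, Cox6a2 -0.43, Cox7a2l -0.31, Cox8a -0.0123, Sdhb -0.0821 and Uqcrq -0.0532. At 30 against 2 days they included Atp5f1b -0.42, Atp5f1d -0.55, Atp5mc2 -0.43, Cox4i1 -0.0271, Cox6a2 -0.46 and Cox6b1 -0.23. Also among them were Cox7a2l -0.33, Cox8a -0.44, Cyc1 -0.17, Uqcr11 -0.57 and Uqcrfs1 -0.12. At 30 against 10 days they included Atp5f1a -0.36, Atp5mc2 -0.63, Atp5mc3 -0.12, Cox4i1 -0.30, Cox6a1 -0.59, Cox6a2 -0.42, Cox6b1 -0.52 and Cox7a2l -0.48. Further ones at that contrast were Cox8a -0.56, Cyc1 -0.41, Cycs -0.0902, Sdhb -0.32, Sdhc -0.18, Uqcr11 -0.55, Uqcrc2 -0.20 and Uqcrq -0.40. The single-span loci of Uqcrb and Cox6b1, the filter, the factors from gene sums, the most abundant transcript and an intensity trend moved none of the 6 counts by over 1.5 times. Fold changes of genes near a level of 1, such as Cox7a1 and Cox4i2, depend on the pseudocount.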
